A study of Mus musculus with 15 samples.

Results

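miR-122 is the microRNA (miRNA) that hepatocytes are best known for, and both arms of its hairpin, mmu-miR-122-5p and mmu-miR-122-3p (miR-122-5p and miR-122-3p below), were followed here in small RNA libraries of mouse Kupffer cells, the macrophages resident in the liver. The members were taken by name, and these 2 of the 248 listed miRNAs are both in the table of 9 weeks and in that of 14 weeks. The mice were C57BL/6J mice (wt) and ob/ob mice, which carry no functional leptin and become obese, and no other treatment is named. There were 4 wt and 3 ob/ob libraries at 9 weeks and 4 of each at 14 weeks. The labels do not say how the Kupffer cells were isolated, whether cells of several mice were pooled, on which background the ob/ob mice were kept, or whether replicates came from separate mice, and the p-values therefore reflect the variation among these libraries, which may be technical.

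A miRNA hairpin is cut into a duplex, and one arm, the guide, is loaded into an Argonaute protein and represses mRNAs that pair with its seed, bases 2 to 8, while the other arm is mostly degraded. In miR-122 the 5p arm is the guide. In hepatocytes it is highly abundant and takes part in the control of cholesterol and lipid metabolism. Because other cells have little of it, it is widely used as a sign of hepatocyte RNA in blood and in isolated liver cells.

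For comparison, the other 3 tested miRNAs of the hepatocyte list and 3 of those whose levels ran most like miR-122-5p are shown by sequence, 5′ to 3′, with the seed in capitals (RefSeq, GRCm38.p6), because close copies can exchange reads. miR-192-5p and miR-215-5p have the same seed and differ at 3 of 21 bases, none in the seed. miR-194-5p is made from 2 loci, each beside one of that pair. miR-146a-5p and miR-146b-5p, induced in macrophages by inflammatory signals, share a seed and differ at 2 of 22 bases, at positions 18 and 21 from the 5′ end. miR-184-3p shares its seed with no other listed miRNA that the sequence table holds. On the plus strand lie miR-192-5p (chr19:6264857-6264877), miR-215-5p (chr1:185313610-185313630), both copies of miR-194-5p (chr1:185313325-185313346 and chr19:6264658-6264679) and miR-146b-5p (chr19:46342790-46342811), and on the minus strand miR-146a-5p (chr11:43374435-43374456) and miR-184-3p (chr9:89802263-89802284).
miR-192-5p: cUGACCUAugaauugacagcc
miR-215-5p: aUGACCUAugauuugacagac
miR-194-5p: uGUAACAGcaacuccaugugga
miR-146a-5p: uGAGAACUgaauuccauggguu
miR-146b-5p: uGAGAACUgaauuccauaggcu
miR-184-3p: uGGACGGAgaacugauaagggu

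The 248 listed miRNAs summed to 147387 to 358621 RPM (reads-per-million) per library. The worth of 1 read in RPM, read from the low values, implied depths of 9.08 to 98.1 M reads (M, mega), and ob/ob libraries were deeper than wt libraries at 9 weeks (25.9 to 33.9 M against 13.4 to 22.8 M) and at 14 weeks (44.0 to 98.1 M against 9.08 to 39.0 M). wt replicate 1 of 14 weeks stood apart, with the lowest sum and the lowest depth, and results that rest on it are given with and without it. Markers of the lineage of the labelled cell type were present: miR-142a-5p, of blood-derived cells in general, was at 1756 to 4320 RPM, and miR-511-3p, from the mannose receptor gene of macrophages, was at 53.6 to 183.1 RPM. The partner arm miR-142a-3p was listed at 18.6 RPM or less in every library. Of the 8 arms of the myeloid marker list used below, 5 were listed. Endothelial miR-126a-5p was above miR-142a-5p in every library, at 10085 to 59409 RPM, so an endothelial marker was present in all of them. Its partner arm miR-126a-3p averaged 2943 and 1580 RPM in wt and ob/ob at 9 weeks, below miR-142a-5p (3653 and 2588 RPM). At 14 weeks it averaged 2933 and 2035 RPM, against 2415 and 3279 RPM of miR-142a-5p. Levels of different miRNAs do not give shares of cells, and the purity of the preparations was not tested. Lane 2 carried all libraries of 9 weeks, while those of 14 weeks were split, with replicates 1 and 2 in lane 1 and replicates 3 and 4 in lane 2 for wt and ob/ob alike.

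The precursor gene of both arms, Mir122, lies on the plus strand of chromosome 18 at 65248861 to 65248926 (GENCODE vM21, GRCm38) and overlaps an exon of the long noncoding RNA gene AC157910.3 (65244287 to 65252621). The nearest protein-coding genes are Nedd4l, 31.0 kb before it, and Alpk2, 16.6 kb after it. RefSeq lists a second hairpin, Mir122b, over nearly the same stretch (65248863 to 65248921), and the sources used here do not say how reads of this stretch were divided.

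miR-122-5p was detected in all 15 libraries, at 15.2 to 228 RPM, and ranked between 42 and 103 among the 248 listed miRNAs, counted from the most abundant. In every library it was below miR-142a-5p and below miR-192-5p, another miRNA abundant in hepatocytes, the log2 ratio to the latter being -7.29 to -3.88. Group means were 46.3 ± 29.0 RPM (SD, n = 4) for wt at 9 weeks, 46.7 ± 39.2 (n = 4) for wt at 14 weeks, 54.9 ± 17.9 (n = 4) for ob/ob at 14 weeks and 166 ± 57.9 (n = 3) for ob/ob at 9 weeks. The first 3 of these means lie within 1 SD of one another, and the fourth was set apart from the wt group of its own age by the test below. Values of 9 and 14 weeks come from separate tables and are set side by side without a test. These are bulk libraries, in which fewer cells of a type and less RNA per cell cannot be told apart.

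At 9 weeks, miR-122-5p was higher in ob/ob Kupffer cell libraries. The wt replicates 1 to 4 held 73.1, 18.4, 24.2 and 69.4 RPM, and the ob/ob replicates 1 to 3 held 113, 158 and 228 RPM. Every ob/ob library lay above every wt library, which was so for 13 of the 179 miRNAs tested (7.26%). The log2 fold change was 2.02 ± 0.55 (SE, limma adjusted p = 0.0244, 95% interval 0.72 to 3.33), a 4.07-fold difference. Of all tested miRNAs 9 were called higher in ob/ob (5.03%), 58 lower (32.4%) and 67 in all (37.4%), around a median log2 fold change of -0.51, and miR-122-5p had the third largest rise. The sum of the listed miRNAs also differed without overlap at this age, at 297668 to 358621 RPM in wt and 230785 to 250422 RPM in ob/ob (two-sided exact permutation p = 0.0571, the smallest possible). With each library scaled to this sum, the log2 fold change of miR-122-5p was 2.49 ± 0.50 (limma adjusted p = 0.0170). The counts behind the values, 247 to 7725 implied reads, leave a counting error far below the spread between replicates: 16.2 to 20.8 RPM in the shallowest case, wt replicate 2 (exact Poisson interval, 95%, counting error only).

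The wt libraries of 9 weeks themselves fell into a lower pair and a higher pair that differed by up to 3.97-fold, while the ob/ob libraries spanned 2.01-fold. After median-ratio rescaling, which divides a library by a size factor taken from its typical miRNA and sets the median change near 0, wt libraries held 15.1 to 59.5 and ob/ob libraries 136 to 286, and the difference was 2.53 ± 0.54 on the log2 scale (limma adjusted p = 0.0208). Of 177 miRNAs tested on that scale, 20 were called higher (11.3%) and 18 lower (10.2%), 21.5% in all. The call ended without ob/ob replicate 2 (log2 fold change 2.03 ± 0.72, adjusted p = 0.0717) or without ob/ob replicate 3 (1.77 ± 0.67, adjusted p = 0.0964), with the direction kept.

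**Figure D1:**
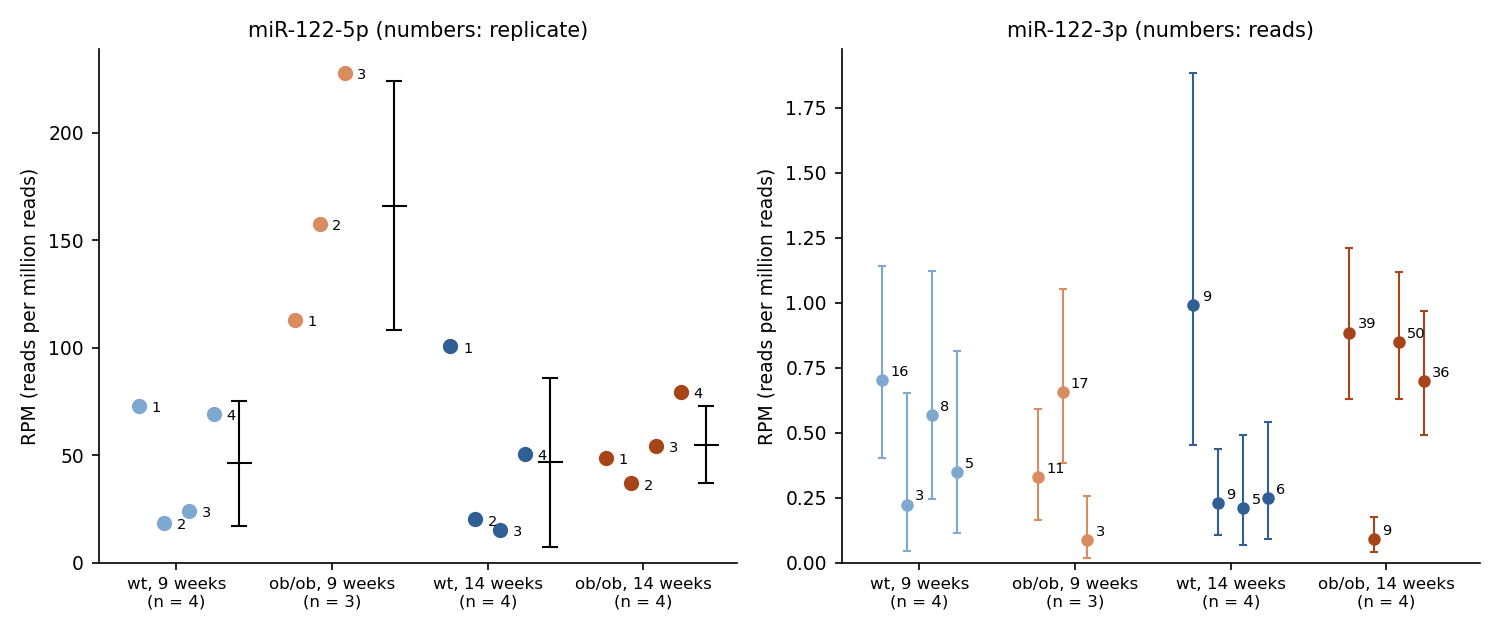
Left, miR-122-5p in RPM by library (points, numbered by replicate) with the group mean and SD in black; right, miR-122-3p in RPM with its 95% exact Poisson interval, numbered by reads. At 9 weeks the 3 ob/ob libraries, at 113 to 228 RPM of miR-122-5p, sit above all 4 wt libraries, at 14 weeks the genotypes overlap, and miR-122-3p overlaps at both ages.

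At 14 weeks the genotypes overlapped. The wt replicates 1 to 4 held 100.7, 20.2, 15.2 and 50.6 RPM of miR-122-5p, and the ob/ob replicates 1 to 4 held 48.8, 36.9, 54.3 and 79.4 RPM. The highest library of this age was wt replicate 1, and the 2 lowest were wt as well. The log2 fold change was 0.57 ± 0.55 (limma adjusted p = 0.551), with a 95% interval from -0.68 to 1.81, which covers a fall to 0.625-fold as well as a 3.50-fold rise. Here 20 of the 171 miRNAs tested were called higher in ob/ob (11.7%), 6 lower (3.51%) and 26 in all (15.2%), around a median of 0.20. Every ob/ob library lay above every wt library for 38 of the 171 (22.2%), and miR-122-5p was not one of them.

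The value at 14 weeks depended on single libraries, wt replicate 1 among them. Per sum of the listed miRNAs, which was low in this library, it held 683 ppm of miR-122-5p, against 45.8 to 143 in the other wt libraries and 113 to 291 in ob/ob. On the rescaled values it was at 174, above all 4 ob/ob libraries (31.8 to 84.6), and the log2 fold change was 0.35 ± 0.76 (adjusted p = 0.771), where 26 of 168 miRNAs were called higher (15.5%) and 22 lower (13.1%), 28.6% in all. Without it the log2 fold change was 1.06 ± 0.43 as deposited (adjusted p = 0.103) and 1.07 ± 0.46 rescaled (adjusted p = 0.122), and neither passed. Within lane 1, which holds this library, it was -0.093 ± 0.81 (adjusted p = 0.958), and within lane 2 1.22 ± 0.63 (adjusted p = 0.211), each with 2 libraries a group. Leaving out wt replicate 3 lowered it to 0.17 ± 0.52 (adjusted p = 0.891), wt replicate 2 to 0.30 and ob/ob replicate 4 to 0.37.

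Whether the ob/ob effect on miR-122-5p differed between the ages was tested as the interaction of genotype and age over all 15 libraries. The log2 effect at 14 weeks minus that at 9 weeks was -1.46 ± 0.84 (limma adjusted p = 0.271, 95% interval -3.26 to 0.34), and -2.18 ± 1.04 after rescaling (adjusted p = 0.568). The interval includes 0 and also differences larger than the whole effect at 9 weeks. No miRNA passed this test as deposited or rescaled, 0 of 187 (0%), with 48 and 16 at an unadjusted p under 0.05. The difference between the ages was -0.96 ± 0.75 without wt replicate 1 of 14 weeks (adjusted p = 0.491) and -0.80 ± 0.97 in lane 2 only (adjusted p = 0.775).

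**Figure D2:**
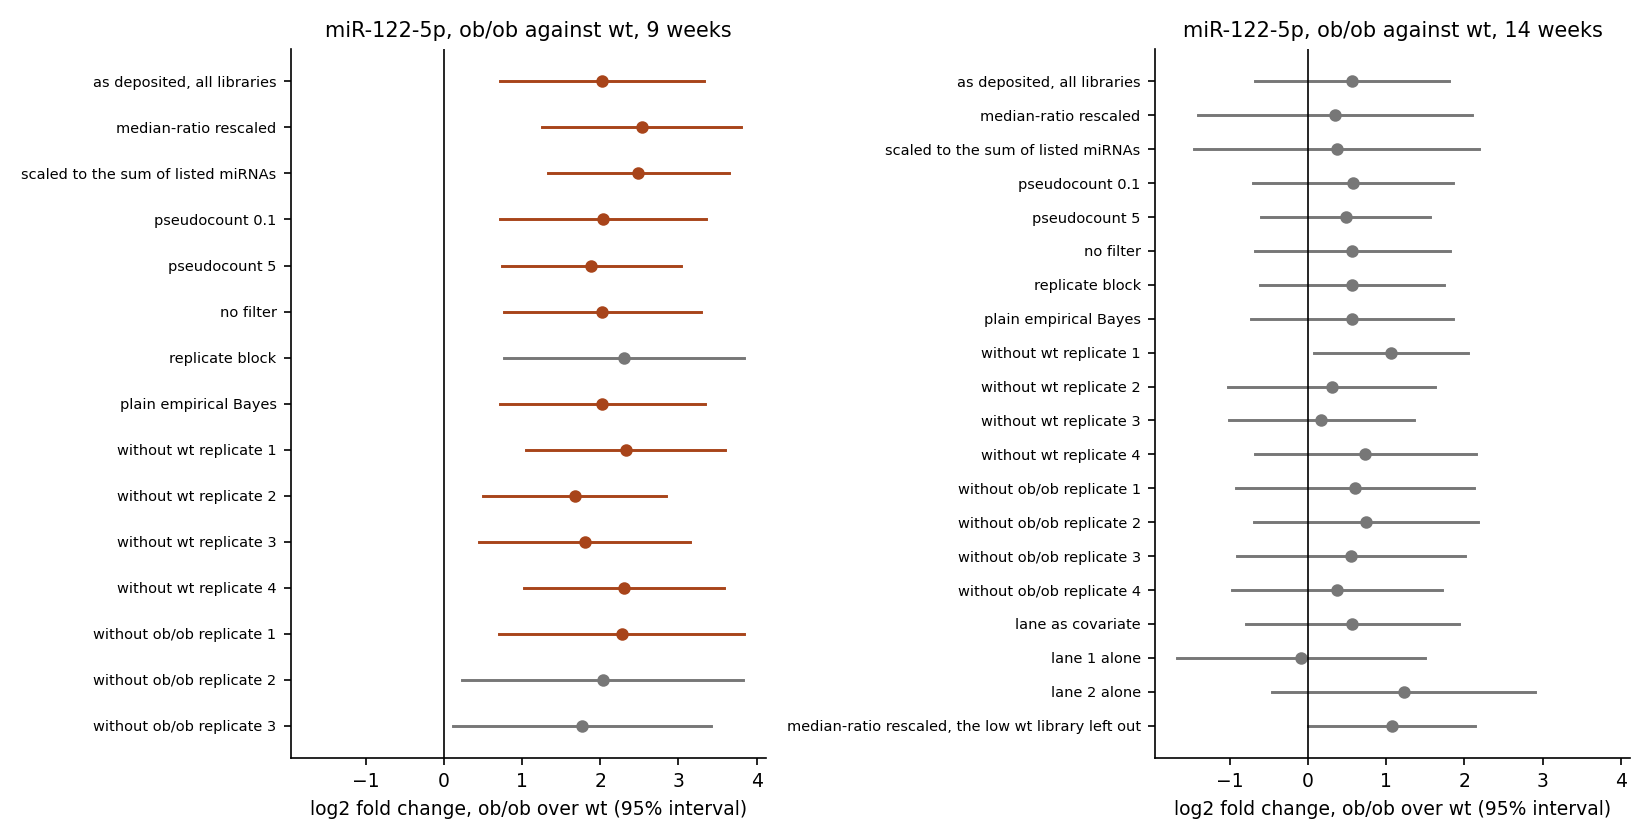
The log2 fold change of miR-122-5p (ob/ob over wt, points) with its 95% interval under each processing alternative, at 9 weeks (left) and 14 weeks (right); red marks a limma adjusted p under 0.05 and grey one above it. At 9 weeks all values are positive, between 1.67 and 2.53, while at 14 weeks they run from -0.093 to 1.22 and none passes.

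miR-122-3p, the arm that is mostly degraded, was rare. It was at 0.0885 to 0.991 RPM, and its values came out as 3 to 50 whole reads per library. In no library did it reach 1 RPM, so it did not enter the limma test. At 9 weeks the wt replicates 1 to 4 had 16, 3, 8 and 5 reads (0.703, 0.223, 0.569 and 0.350 RPM) and the ob/ob replicates 1 to 3 had 11, 17 and 3 reads (0.330, 0.657 and 0.0885 RPM). At 14 weeks the wt replicates had 9, 9, 5 and 6 reads (0.991, 0.231, 0.211 and 0.249 RPM) and the ob/ob replicates 39, 9, 50 and 36 reads (0.885, 0.0918, 0.847 and 0.699 RPM). The genotypes overlapped at both ages, and the library with the most reads of this arm was not the one with the highest RPM. The difference of the mean log2 RPM, ob/ob minus wt, was -0.65 at 9 weeks (two-sided exact permutation p = 0.514) and 0.50 at 14 weeks (exact permutation p = 0.543). The difference at 9 weeks turned to 0.15 without ob/ob replicate 3, and that at 14 weeks moved between 0.19 without ob/ob replicate 1 and 1.28 without ob/ob replicate 2 (1.03 without wt replicate 1).

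Pooled over the libraries of a group, miR-122-3p stood at 0.496 RPM in wt at 9 weeks (95% exact Poisson interval 0.339 to 0.700) and 0.333 in ob/ob (0.226 to 0.473). At 14 weeks it was 0.303 in wt (0.203 to 0.434) and 0.530 in ob/ob (0.444 to 0.628). These intervals cover counting error only and not the spread between libraries. The reads are not independent molecules, since no molecular identifiers are described.

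The 3p arm made up 0.0388% to 2.30% of the reads of both arms, depending on the library. In wt libraries its share was 0.502% to 2.30% at 9 weeks and 0.490% to 1.37% at 14 weeks. In ob/ob libraries it was 0.0388% to 0.415% at 9 weeks and 0.248% to 1.78% at 14 weeks. ob/ob replicate 3 of 9 weeks combined the highest miR-122-5p of the series with 3 reads of miR-122-3p, a share of 0.0388% (95% Wilson interval 0.0132% to 0.114%), and wt replicate 3 of the same age had the highest share, 2.30% (1.17% to 4.47%). At 9 weeks the log2 ratio of 5p to 3p averaged 6.53 ± 0.92 (SD, n = 4) over wt and 9.22 ± 1.85 (n = 3) over ob/ob libraries. Every ob/ob library lay above every wt library, which was so for 7 of 179 miRNAs set against miR-122-3p in the same way (3.91%). Separation in the other direction was not counted. The difference of 2.69 had a two-sided exact permutation p of 0.0571, the smallest that 4 against 3 libraries allow, and an adjusted p of 0.152 over 8 ratios. Without ob/ob replicate 3, with its 3 reads of miR-122-3p, it was 1.64. At 14 weeks (2 of 171 miRNAs higher in every ob/ob library than in every wt library, 1.17%) the log2 ratios overlapped, at 6.74 ± 0.65 and 6.82 ± 1.30 (exact permutation p = 0.943).

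Ratios of miR-122-5p to other miRNAs of the same library do not depend on the denominator of the RPM, and all share the same miR-122-5p values. Against miR-142a-5p, the myeloid reference, the log2 ratio at 9 weeks averaged -6.54 ± 0.82 (SD, n = 4) over wt and -4.00 ± 0.46 (n = 3) over ob/ob libraries, a difference of 2.55 with no overlap (exact permutation p = 0.0571, adjusted p = 0.152). Against this reference, 32 of 178 miRNAs lay higher in every ob/ob library than in every wt library (18%). Against miR-194-5p the difference was 1.61 (exact permutation p = 0.0571, adjusted p = 0.152), with every ob/ob library above every wt library, as in 7 of 178 miRNAs (3.93%). Against miR-192-5p the groups overlapped, with a difference of 0.47 (exact permutation p = 0.400). At 14 weeks all 4 ratios overlapped, while 8 of 170 miRNAs lay higher in every ob/ob library against miR-194-5p (4.71%) and 18 of 170 against miR-142a-5p (10.6%). The log2 ratio to miR-192-5p was then -5.20 ± 1.02 in wt and -6.56 ± 0.58 in ob/ob, a difference of -1.37 (exact permutation p = 0.0857, adjusted p = 0.171), and those to miR-194-5p and miR-142a-5p differed by -0.22 and 0.14 (exact permutation p = 0.771 and 0.857).

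Beside miR-122, the hepatocyte list held miR-192, miR-194, miR-215 and miR-148a. Of its 11 arms 7 were in the tables and 4 passed the filter: miR-122-5p, miR-192-5p, miR-194-5p and miR-215-5p. At 9 weeks 2 of the 4 were higher in ob/ob and none lower, where 5.03% of all tested miRNAs were higher and 32.4% lower, and the median log2 fold change was 0.998 against -0.51 over all. At 14 weeks 2 of the 4 were higher and none lower, beside 11.7% and 3.51% of all, with a median of 1.004 against 0.20. The counts and medians include miR-122-5p itself and are therefore not separate from its values. Apart from it, miR-192-5p, miR-194-5p and miR-215-5p had log2 fold changes of 1.57, 0.43 and 0.091 at 9 weeks and 1.94, 0.79 and 1.21 at 14 weeks. After rescaling 3 of the 4 were higher at 9 weeks (11.3% of all) and 2 at 14 weeks (15.5% of all). Neither arm of miR-148a was listed, so miR-148a could not be analysed. The member shared by both counts was miR-192-5p, which rose from 1556 ± 459 to 4494 ± 743 RPM at 9 weeks (log2 fold change 1.57 ± 0.27, limma adjusted p = 0.00529) and from 1317 ± 247 to 5212 ± 1590 RPM at 14 weeks (1.94 ± 0.30, adjusted p = 0.00256). As deposited, the other was miR-122-5p at 9 weeks and miR-194-5p at 14 weeks. After rescaling, miR-122-5p and miR-194-5p passed beside it at 9 weeks, and miR-215-5p at 14 weeks.

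At 9 weeks miR-194-5p averaged 135 ± 29.5 RPM among wt and 182 ± 43.7 among ob/ob libraries (limma adjusted p = 0.195, and 0.0238 rescaled), and at 14 weeks 108 ± 7.39 and 187 ± 7.18 RPM (log2 fold change 0.79 ± 0.22, adjusted p = 0.0352, and 0.120 rescaled). Leaving out single libraries moved the adjusted p at 14 weeks between 0.0111 and 0.128, and the call held only without wt replicate 1 or without ob/ob replicate 1. miR-215-5p averaged 50.0 ± 6.71 and 57.1 ± 24.2 RPM at 9 weeks and 43.3 ± 19.6 and 96.3 ± 39.9 RPM at 14 weeks (adjusted p = 0.868 and 0.117, and 0.0457 rescaled at 14 weeks). The partner arms miR-192-3p and miR-215-3p stayed at 1.34 RPM or less in all libraries, close to miR-122-3p, and were not tested. Of these values only those of miR-192-3p at 9 weeks did not overlap, with 0.220 to 0.372 RPM in the wt and 0.413 to 0.502 RPM in the ob/ob libraries. They rest on few reads. Of the 179 miRNAs tested at this age, 13 (7.26%) were higher in every ob/ob library. miR-192-3p is not among the 179, and the share among miRNAs as rare was not counted.

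**Figure D3:**
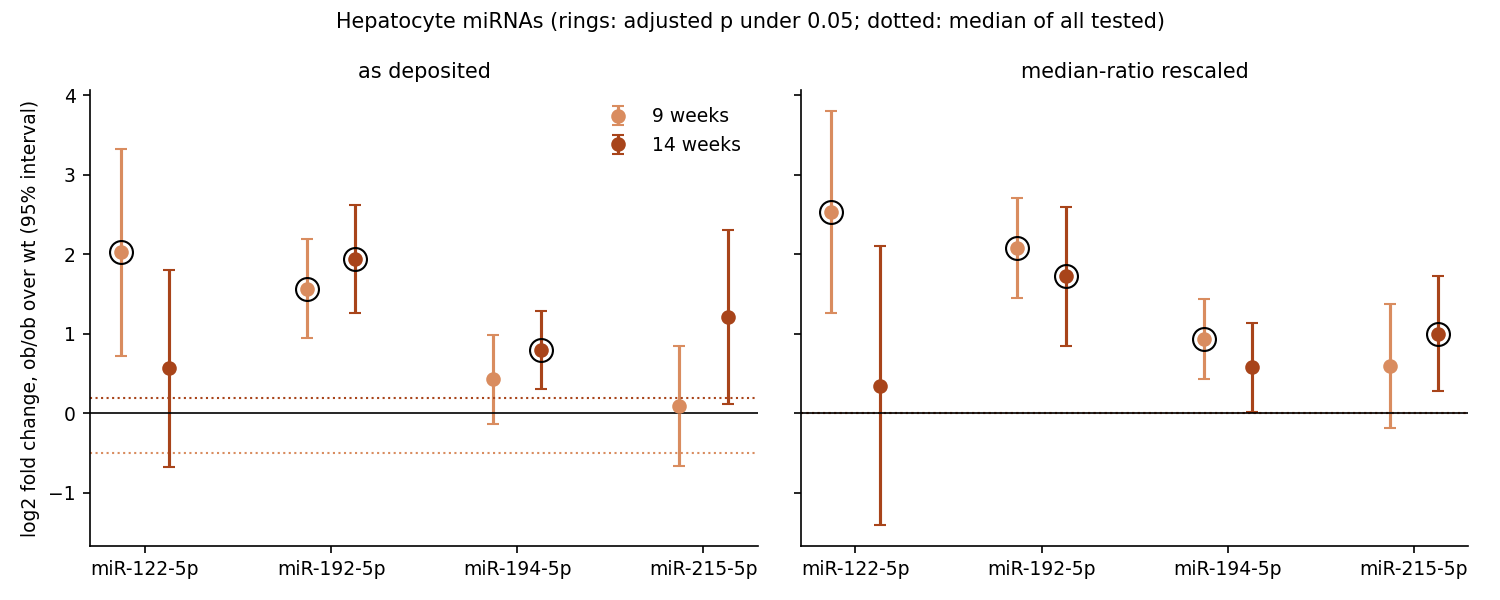
The log2 fold change (ob/ob over wt) of the 4 tested hepatocyte miRNAs with its 95% interval at 9 weeks (light) and 14 weeks (dark), as deposited (left) and rescaled (right); rings mark a limma adjusted p under 0.05 and dotted lines the median of all tested miRNAs. miR-192-5p is ringed at both ages on both scales, and miR-122-5p at 9 weeks only.

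The lists of other cell types stood as follows beside the miR-122-5p difference at 9 weeks, when 32.4% of all tested miRNAs were lower and 5.03% higher. The 7 hepatocyte arms together came to 1157 to 2274 RPM per wt library and 4036 to 5598 RPM per ob/ob library, most of which was miR-192-5p (978 to 2007 and 3687 to 5148 RPM). miR-122-5p made 18.4 to 73.1 and 113 to 228 RPM of it, so the sum mainly reflects miR-192-5p. How much of the sum came from hepatocytes was not tested. The erythroid list held 1 measured member of 5, miR-144-5p, which was higher, with 14.7 to 21.7 RPM in ob/ob libraries and 0.522 to 1.49 RPM in those of wt. Of 6 tested stellate and mesenchymal members 3 were lower, miR-199a-3p, miR-214-3p and miR-214-5p (summed level of the list 1385 to 1885 and 1033 to 1644 RPM). The most abundant members of this list were miR-199a-3p (902 ± 126 and 317 ± 99.9 RPM) and miR-143-3p, which did not pass (671 ± 241 and 890.0 ± 288 RPM). Of the 2 endothelial arms, miR-126a-5p and miR-126a-3p, miR-126a-3p was lower (summed level 42296 to 59286 and 18455 to 45923 RPM). Of 4 tested myeloid members 1 was lower, the macrophage marker miR-511-3p, at 159 ± 11.8 RPM in wt and 77.9 ± 23.9 RPM in ob/ob (log2 fold change -1.07 ± 0.24, limma adjusted p = 0.00984, and -0.56 with 0.0860 rescaled). The myeloid list summed to 3830 to 7132 and 4406 to 8190 RPM, most of it from miR-142a-5p (3653 ± 577 and 2588 ± 558 RPM) and miR-146a-5p (1584 ± 983 and 3746 ± 1361 RPM), neither of which passed. None of 4 tested biliary members, led by miR-141-3p and miR-200b-3p, and none of 3 lymphocyte members, led by miR-181a-5p and miR-150-5p (7421 to 7649 and 4935 to 6729 RPM), passed. No list had a member at 0 in all libraries of this age. After rescaling, no endothelial member passed, 1 stellate member was lower, and 1 myeloid and 1 biliary member were higher.

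At 14 weeks the hepatocyte arms together came to 1155 to 1739 RPM per wt library and 3298 to 6951 RPM per ob/ob library, of which miR-192-5p made 983 to 1524 and 2937 to 6628 RPM. miR-122-5p, at 15.2 to 100.7 and 36.9 to 79.4 RPM, was a small part of this sum and did not pass. At this age 11.7% of all tested miRNAs were higher and 3.51% lower. The erythroid member was higher (0.331 to 0.974 and 11.6 to 32.4 RPM), as were 1 of 4 myeloid members, miR-155-5p (summed level of the list 3140 to 5434 and 3773 to 5617 RPM) and 1 of 4 biliary members, miR-141-3p (24.1 to 56.9 and 53.8 to 104.1 RPM). None of 2 endothelial (10833 to 63153 and 33631 to 55779 RPM), 6 stellate (496 to 1865 and 1559 to 3011 RPM) or 3 lymphocyte members (5075 to 8207 and 5752 to 7982 RPM) passed, but 1 stellate member was higher after rescaling. Endothelial miR-126a-3p ran from 0 to 3733 RPM over the ob/ob libraries, and its log2 fold change of -3.03 ± 2.95 (limma adjusted p = 0.551) rests on the library at 0. miR-511-3p was at 150 ± 49.6 and 130 ± 20.3 RPM and did not pass. The part of these cells in the miR-122-5p values was not tested.

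Libraries of one group that held more miR-122-5p also held more miR-192-5p. After each value was set against the mean of its group, log2 miR-122-5p and log2 miR-192-5p correlated over the 15 libraries with Pearson's r = 0.670 (permutation within groups, p = 0.00752, adjusted p = 0.0376 over 5 relations) and Spearman's rho = 0.771 (permutation p = 0.00710, adjusted p = 0.0355). Without the 2 libraries farthest from the median of miR-192-5p, r was 0.781. Within ages r was 0.940 at 9 weeks (7 libraries) and 0.479 at 14 weeks (8 libraries), and within lane 2 it was 0.943 (11 libraries).

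The other 4 relations did not pass as deposited. With miR-122-3p, r was 0.409 and rho 0.504 (permutation adjusted p = 0.262 and 0.129), 0.581 without the 2 farthest libraries, 0.0306 at 9 weeks and 0.644 at 14 weeks. With miR-194-5p, r was 0.385 and rho 0.504 (permutation adjusted p = 0.339 and 0.187), 0.344 without the 2 farthest libraries, 0.603 at 9 weeks and 0.0641 at 14 weeks, and after rescaling it passed (r = 0.808, permutation adjusted p = 0.0194). With the sum of the listed miRNAs, r was -0.451 and rho -0.139 (permutation adjusted p = 0.345 and 0.759), and with the implied depth -0.417 and -0.207 (permutation adjusted p = 0.345 and 0.698). Without the 2 farthest libraries r was -0.207 for the sum (wt replicates 1 and 4 of 14 weeks left out) and 0.0788 for the depth (wt replicates 1 and 2 of 14 weeks left out). They also had opposite signs at 9 weeks (0.784 and 0.565) and at 14 weeks (-0.749 and -0.768).

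The miRNAs whose pattern was most like that of miR-122-5p were found among 109 others that averaged 10 RPM or more and were never listed at 0, by Pearson's r of log2(RPM + 0.5) over the 15 libraries. With values set against the mean of their group, the 5 highest were miR-146b-5p (r = 0.851), miR-184-3p (0.832), miR-146a-5p (0.770), miR-192-5p (0.670) and miR-31-5p (0.624), against a median of -0.38 over all 109. With values set against the mean of each age, the same 5 led, with miR-184-3p first (0.907). On the rescaled values miR-184-3p and miR-146b-5p led (0.911 and 0.904 against group means), with a median of 0.0691 over all 109. These are descriptions, since all miRNAs of a library share its depth and denominator, and the 5 were picked as the highest of many.

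In wt at 9 weeks the lower and the higher pair of libraries were the same for all 5 of these miRNAs as for miR-122-5p, which the choice of the 5 favours. The same pairs stood apart for miR-194-5p (171, 103, 120 and 145 RPM in replicates 1 to 4), for miR-142a-5p (3874, 2975, 3441 and 4320 RPM) and for the sum of the listed miRNAs (358422, 330453, 297668 and 358621 RPM). miR-146a-5p was at 2172, 679, 824 and 2659 RPM in wt replicates 1 to 4, miR-146b-5p at 121, 42.8, 49.5 and 164 RPM, and miR-184-3p at 41.1, 18.2, 19.5 and 31.2 RPM. At 14 weeks miR-122-5p and these miRNAs, apart from miR-31-5p, were higher in wt replicates 1 and 4 than in replicates 2 and 3, miR-146a-5p being at 1301, 756, 911 and 2513 RPM and miR-146b-5p at 100.2, 52.9, 53.0 and 140 RPM. Replicates 1 and 4 of 14 weeks were in different lanes. miR-142a-5p ranked 16 of the 109 by the same measure against group means (r = 0.0533, and 0.572 rescaled), and miR-215-5p ranked 67 (r = -0.49).

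**Figure D4:**
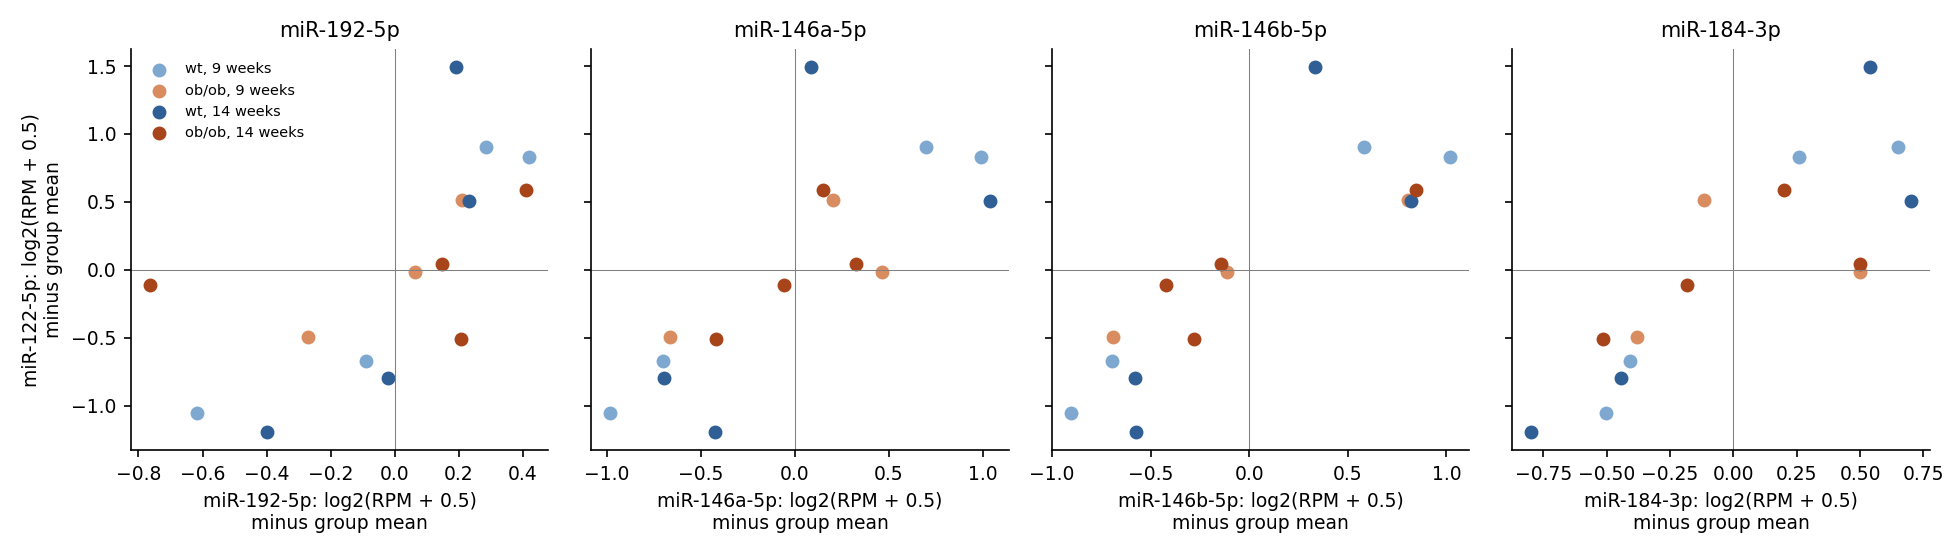
Deviation of log2(RPM + 0.5) from the group mean for miR-122-5p (vertical axes) against miR-192-5p, miR-146a-5p, miR-146b-5p and miR-184-3p (horizontal axes), with 1 point per library coloured by group. Points rise from lower left to upper right in each panel, with r of 0.670, 0.770, 0.851 and 0.832, and wt replicate 1 of 14 weeks is the highest point of each panel.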

How the data were processed

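Small RNA libraries of Kupffer cells (TruSeq Small RNA kit, Illumina sequencing, per the labels' protocols) were analysed from the tables that the authors deposited, 1 per age. Their values were taken as RPM as deposited by the authors; the unit was inferred from the values, since low values were whole multiples of 1 step within 0.1 reads. The submitters' processing notes name bcl2fastq, cutadapt, GRCm38.p5 and mm10. Information on aligner, counting, miRNA annotation and denominator was not given in the sources used here, and RPM may shift with the share of other reads in a library.

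log2(RPM + 0.5) was tested with limma 3.58.1 (R 4.3.3; robust empirical Bayes with a trend; p adjusted over all miRNAs tested by Benjamini-Hochberg; threshold 0.05), each age alone, for miRNAs with at least 1 RPM in a number of libraries no lower than the size of the smaller group (3 of the 15 for the interaction). Fold changes on this scale understate changes of rare miRNAs. Ratios and miR-122-3p were tested by two-sided exact permutation (scipy 1.17.1, smaller tail doubled), and relations by 100000 permutations within groups. Median-ratio rescaling used, in each age, miRNAs never listed at 0 that averaged 5 RPM or more. On simulated data (20 runs) limma found, of changes of 2-fold and of 4-fold, 74.8% and 96.2% for 9 weeks (163 miRNAs), 72% and 96% for 14 weeks (161), and 52.8% and 90.2% for the interaction (162). Of its calls 4.07%, 2.89% and 3.87% were false. The values were drawn from normal distributions around rescaled means, with changes in both directions, for miRNAs never listed at 0. These shares are averages over miRNAs and do not give the chance of finding miR-122-5p in the deposited values. Named were both arms of miR-122, the listed members of the hepatocyte list, the 2 most abundant members of each other marker list and the 5 miRNAs most like miR-122-5p; miR-511-3p, miR-142a-3p, miR-214-3p, miR-214-5p, miR-155-5p and the r of single other miRNAs were named after their values were seen. Members, lists and tests were chosen with earlier results of these data known. Of 248 miRNAs 218 matched the RefSeq sequence table.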

Additional observations from a re-analysis of the deposited data

Results flagged for a closer look

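In wt at 14 weeks, miR-122-3p of replicate 1 was at 0.991 RPM (9 reads), against 0.249 RPM or less in the other 3 libraries, a gap of 0.951 of the group's range. In wt at 9 weeks, miR-192-3p of replicate 1 was at 0.220 RPM, below 0.350 RPM or more in the others, a gap of 0.851 of the range. For 4 libraries a gap above 0.829 was taken as far from the others, and chance alone gives about 1 in 20 groups such a gap; 2 values in 33 groups had one. Both rest on few reads.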

How the results depend on the processing

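The rise of miR-122-5p at 9 weeks kept its direction under all 14 alternatives and its side of the threshold under 11. Without 1 library the log2 fold change was 1.67 to 2.33 (limma adjusted p 0.0200 to 0.0964). With a replicate block it was 2.30 (adjusted p = 0.0571). The replicate numbers do not pair the libraries: deviations of same-numbered wt and ob/ob libraries had r of 0.28, 0.14 and -0.14 (9 weeks) and -0.24, 0.10, 0.20 and 0.09 (14 weeks), and not every library correlated best with its own number. The block changed no other call of miR-122-5p. At 14 weeks none of 19 alternatives passed, and lane 1 alone turned the sign (-0.093); without 1 library the range was 0.17 to 1.06. The difference between the ages kept its sign and missed the threshold in all 23.

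miRNAs called at 9 weeks were 67 as deposited, 38 rescaled (20 higher, 18 lower), 35 scaled to the sum (19 higher, 16 lower) and 32 with the replicate block, and at 14 weeks 26 as deposited, 48 rescaled (26 higher, 22 lower), 48 scaled to the sum, 1 in lane 1, 51 in lane 2, 48 rescaled without the low wt library, an alternative added after seeing the data, and 13 to 46 without 1 library (46 without wt replicate 1, 15 without wt replicate 3 and 13 without ob/ob replicate 3). For the difference between the ages they were 0, but 4 without a filter, 2 with the block and 0 to 3 without 1 library.

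Without 1 library miR-122-3p differed by -1.30 to 0.15 at 9 weeks and 0.19 to 1.28 at 14 weeks, and the log2 ratio to it at 9 weeks by 1.64 to 3.35. At 14 weeks the log2 ratio without 1 library ran from -0.53 to 0.42 against miR-122-3p, -0.59 to 0.29 against miR-194-5p and -0.31 to 0.79 against miR-142a-5p, so these signs are not fixed. miR-215-5p at 9 weeks ran from -0.14 to 0.51 without 1 library and was below 0 without wt replicate 3, ob/ob replicate 1 or ob/ob replicate 3. The relation to miR-194-5p passed after rescaling only (r = 0.81, permutation adjusted p = 0.0194). At 14 weeks the miR-192-5p call ended in lane 1 alone (1.58, adjusted p = 0.377). The causes were not tested. miR-122-3p rests on 3 to 50 reads per library and miR-122-5p on 247 to 7725.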
